A study of Mus musculus with 4 samples.

Results

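The transcripts of 10 AP-1 and EGR transcription factor genes were followed in AML12, an established mouse hepatocyte line, after transfection with PAV-TBG-P2A-GFP-Chrna4 or with pCMV6-AC-GFP. The genes were taken by symbol (Fos, Fosb, Fosl1, Fosl2, Jun, Junb, Jund, Egr1, Egr2 and Atf3), and all 10 were among the 13422 genes of the deposited table. Chrna4, the alpha-4 subunit of the neuronal nicotinic acetylcholine receptor, was carried by the plasmid of the Chrna4 group (2 libraries, replicates 1 and 2), and the control group received the GFP plasmid (2 libraries, replicates 1 and 3). The line comes from a CD1 mouse of line MT42, and both groups grew in DMEM/F12 with insulin, transferrin, selenium, dexamethasone and serum. The plasmids differ in backbone as well as in insert, and no untransfected sample entered the comparison. A difference between the groups is therefore one between 2 transfections.

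AP-1 is a dimer of basic leucine zipper proteins. JUN proteins pair with each other or with a FOS protein, whereas FOS proteins need a JUN partner to bind DNA, and ATF3 can pair with JUN proteins. EGR1 and EGR2 are zinc finger factors that bind GC-rich sites. Many of these genes are immediate early genes, transcribed within minutes of growth factor, cytokine or stress signals through MAP kinases, SRF and its ETS-type partners. In liver, JUN and EGR1 are known for their induction after injury and partial hepatectomy. Dexamethasone, present in the medium of every library, acts through the glucocorticoid receptor, which is known to restrain AP-1.

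The libraries were even in depth, with 31301396 to 32228360 reads on listed genes. Chrna4 received 2678 and 2290 reads in the Chrna4 libraries and 1 and 3 reads in the control libraries. Hepatocyte markers were uneven in level. The keratin gene Krt18 averaged 1823 and 1746 CPM (the deposited expression unit, reads relative to the scaled size of the library) in Chrna4 and control, and the hepatocyte factor gene Hnf4a 219.7 and 239.9 CPM. In contrast Alb, encoding albumin, averaged 8.22 and 18.4 CPM. Apoa1 and Serpina1a lay below 1 CPM in every library. The biliary markers averaged 298.5 and 511.7 CPM (Krt19), 322.5 and 459.4 (Spp1), 153.5 and 138.3 (Sox9), and 33.6 and 50.5 (Krt7). In the test described in the next paragraph, 0 of 7 tested hepatocyte markers rose and 2 fell (Alb and Ttr). Of 4 tested biliary markers, 0 rose and 3 fell (Krt19, Spp1 and Krt7). Over all tested genes, 9.26% were called higher and 6.66% lower. Most markers of other cell types were not among the listed genes. The summed level was 0.127 to 0.130 CPM in Chrna4 and 0.216 to 0.246 CPM in control libraries over stellate and fibroblast markers, of which only Col1a1 was listed of 6. It was 0.127 to 0.358 and 0 to 0.0308 CPM over endothelial markers, of which Stab2 was listed of 4. For leukocytes it was 3.77 to 4.40 and 4.45 to 5.27 CPM, almost all from Cd68, with Ptprc as the other listed marker of 9. The part of these marker differences in the results below was not tested.

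In the Chrna4 libraries 4 of the 10 genes rose and 0 fell. These were Egr1, Atf3, Fosl1 and Jun, each present at a moderate or high level in the controls. Junb, Jund and Fosl2, which were also well expressed, did not pass the test, and the 95% interval of each difference lay within a change of 1.18-fold in either direction. Fos, Fosb and Egr2 were scarce, with few reads. For Fos and Fosb the controls also differed by more than counting error, which widened the estimates. The test was limma-trend on log2(CPM + 1) over the 11298 genes that averaged 1 CPM or more, with a threshold of 0.05 on the Benjamini-Hochberg adjusted p. A log2 change below is Chrna4 minus control on that scale, where scarce genes appear to change less than they do. It was open to 9 of the 10 genes, since Egr2 lay below 1 CPM. Of these 9, 4 were called higher, beside 9.26% of all tested genes, and 0 were called lower, beside 6.66% (0 also at an unadjusted p under 0.05). Increases made up 58.2% of all calls, and 40.8% with library totals as the scaling (812 higher and 1179 lower). Calls over the whole table numbered 637 higher and 393 lower without Chrna4 1, 602 and 325 without Chrna4 2, 1624 and 1296 without control 1, and 1718 and 1293 without control 3. The same 4 of the 10 genes were called in each of these fits, with Fos added without control 1 and Junb without control 3. In bulk RNA a change in the share of responding cells and a change in RNA per cell cannot be told apart.

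**Figure D1:**
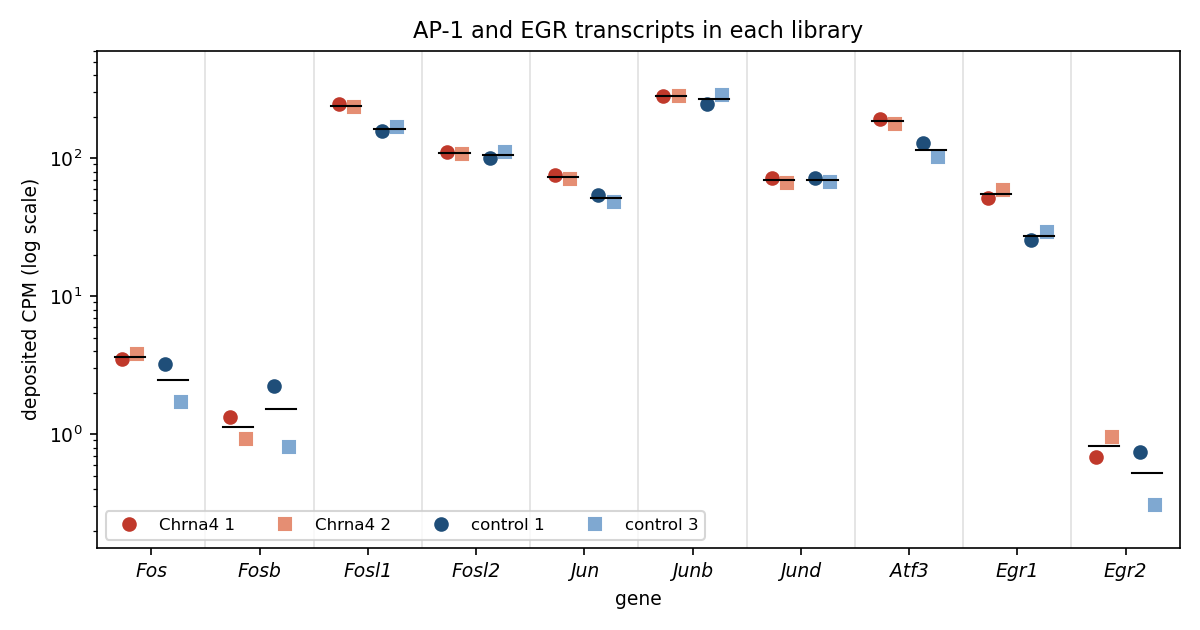
Deposited CPM (log axis) of each gene in the 2 Chrna4 libraries (red, left) and the 2 control libraries (blue, right), with a line at each group mean. Fosl1, Jun, Atf3 and Egr1 show Chrna4 libraries above both controls, Fosl2, Junb and Jund show groups that overlap, and Fos, Fosb and Egr2 lie below 4 CPM.

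RefSeq promoter windows of build GRCm38.p6, each of 250 bases before and 50 after a gene's annotated start, were matched for 8 of the 10 genes, all but Fosl1 and Egr1. The 250 upstream bases are shown for Jun and Atf3, which rose, and for Fos and Junb, which did not pass the test, to set side by side the letters that AP-1 and ATF/CREB factors are known to read. Capitals mark TGACGT, the core of the cAMP response element, or TGACATCA, a variant element, searched on both strands. The full element TGACGTCA contains the core. It and the AP-1 element TGAGTCA were searched too, and neither was present in any window of the 8 genes.
Jun, chr4:95052223-95052472, minus strand: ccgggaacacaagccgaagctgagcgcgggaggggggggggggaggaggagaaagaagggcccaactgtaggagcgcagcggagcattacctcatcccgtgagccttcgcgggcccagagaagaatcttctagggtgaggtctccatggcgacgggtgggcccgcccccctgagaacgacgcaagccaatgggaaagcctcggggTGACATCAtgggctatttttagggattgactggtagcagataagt
Atf3, chr1:191183334-191183583, minus strand: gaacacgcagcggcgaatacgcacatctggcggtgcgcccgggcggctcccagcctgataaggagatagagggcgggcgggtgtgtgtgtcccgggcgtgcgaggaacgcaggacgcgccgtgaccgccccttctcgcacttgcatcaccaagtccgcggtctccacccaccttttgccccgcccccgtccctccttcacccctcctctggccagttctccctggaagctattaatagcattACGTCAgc
Fos, chr12:85473640-85473889, plus strand: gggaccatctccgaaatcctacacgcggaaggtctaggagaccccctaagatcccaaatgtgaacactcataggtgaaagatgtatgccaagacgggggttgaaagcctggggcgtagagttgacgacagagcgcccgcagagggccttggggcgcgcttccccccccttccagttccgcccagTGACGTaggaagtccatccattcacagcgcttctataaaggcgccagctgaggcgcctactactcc
Junb, chr8:84978749-84978998, minus strand: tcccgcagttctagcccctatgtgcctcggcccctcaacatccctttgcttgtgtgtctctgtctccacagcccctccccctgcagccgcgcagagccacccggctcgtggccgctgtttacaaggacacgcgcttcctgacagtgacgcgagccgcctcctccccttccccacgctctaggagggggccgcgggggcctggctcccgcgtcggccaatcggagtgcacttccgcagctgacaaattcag
The Jun window held TGACATCA at bases -45 to -38 from the start. Among all 32851 promoter windows of the same length in the table, 3.62% held these letters. The core TGACGT, held by 7.51% of all windows, lay at bases -8 to -3 in Atf3, on the opposite strand, and at -66 to -61 in Fos. It was also in 3 of the 5 windows listed for Egr2, which overlap and hold the same site. The Atf3 window lies inside the GENCODE gene model, which begins further upstream, so it belongs to an internal start. No capitals appear in Junb. The EGR site GCGGGGGCG, in 2.91% of all windows, was present in Fosl2 and Fosb, and GCGTGGGCG, in 0.612%, in none of the 8 genes. The CArG box, the site of SRF (held by 1.63% of all windows), was found in Egr2, in 4 of its 5 windows. The 3 overlapping windows again share a single site. The search ended 250 bases before each start, so a site further upstream in any gene would have been missed. These matches describe letters and do not show binding.

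Within the FOS subfamily, Fosl1 rose. Fosl1 encodes FRA-1, a FOS protein without the strong activation domain of FOS (GRCm38 chromosome 19, 5447547 to 5455946, plus strand). It had 245.6 and 234.1 CPM in Chrna4 libraries and 157.4 and 166.9 CPM in control libraries. Both Chrna4 values exceeded both controls, and the replicates of each group lay close together. The means were 239.8 ± 8.12 CPM in Chrna4 and 162.2 ± 6.73 CPM in control (SD, n = 2 each), a ratio of 1.48. The log2 change was 0.56 (SE 0.06, adjusted p = 4.59e-05 by limma). Ccdc85b, on the opposite strand, overlaps 1163 of the 2033 merged exon bases of Fosl1, and the sources used here do not state whether strand was used in counting. Ccdc85b moved the other way without passing the test, with 36.8 and 34.1 CPM in Chrna4 and 40.8 and 40.5 CPM in control libraries (adjusted p = 0.123 by limma).

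Fosl2, which encodes FRA-2 (chromosome 5, 32135801 to 32157842, plus strand), did not follow Fosl1. It had 109.98 and 107.2 CPM in Chrna4 libraries and 100.8 and 109.9 CPM in control libraries. The groups overlapped, and the log2 change was 0.04 with a 95% interval of -0.098 to 0.19 (adjusted p = 0.702 by limma).

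Fos and Fosb, the subfamily members with strong activation domains, were low. Fos (chromosome 12, 85473890 to 85477273, plus strand) received 107 and 120 reads in Chrna4 libraries and 105 and 55 reads in control libraries. These reads correspond to 3.48 and 3.80 CPM in Chrna4 and 3.23 and 1.70 CPM in control. The exact 95% counting intervals were 87.7 to 129 and 99.5 to 143 reads in Chrna4, and 85.9 to 127 and 41.4 to 71.6 reads in control. Control 3 thus stood below the other 3 libraries, beyond counting error, while control 1 was close to Chrna4 1. The log2 change was 0.46 (SE 0.22, adjusted p = 0.189 by limma), with a 95% interval of -0.019 to 0.93. It was called without control 1 (log2 0.78, adjusted p = 0.00531 by limma) and was 0.13 without control 3 (adjusted p = 0.726 by limma).

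Fosb (chromosome 7, 19302696 to 19310051, minus strand) received 41 and 29 reads in Chrna4 libraries and 73 and 26 reads in control libraries, or 1.33 and 0.918 CPM against 2.25 and 0.803 CPM. Control 1 was the highest and control 3 the lowest, so that both Chrna4 libraries lay between the controls. The exact 95% counting intervals, 57.2 to 91.8 reads in control 1 and 17.0 to 38.1 in control 3, did not overlap. Its log2 change was -0.19, with a 95% interval of -0.80 to 0.41 (adjusted p = 0.697 by limma). Without control 1 its sign turned, to 0.23.

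In the JUN subfamily Jun rose. It encodes c-JUN, the strongest activator of the subfamily, in a single-exon gene (chromosome 4, 95049034 to 95052222, minus strand). Jun had 76.0 and 71.0 CPM in Chrna4 libraries and 54.4 and 47.7 CPM in control libraries, with no overlap. The group means were 73.5 ± 3.49 CPM in Chrna4 and 51.1 ± 4.74 CPM in control (SD, n = 2 each), a ratio of 1.44. On the log2 scale Jun changed by 0.52 (SE 0.08, adjusted p = 0.000833 by limma). The antisense gene Junos overlaps 689 of its 3189 exon bases and was not among the listed genes.

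Junb, whose product is a weaker activator that can oppose c-JUN (chromosome 8, 84974484 to 84978718, minus strand), had 283.2 and 282.3 CPM in Chrna4 libraries and 247.5 and 288.6 CPM in control libraries. The Chrna4 libraries lay between the controls, which differed from each other by more than the groups did. Its log2 change was 0.08, with a 95% interval of -0.074 to 0.24 (adjusted p = 0.493 by limma). Without control 3, the higher control, Junb was called (log2 0.19, adjusted p = 0.000556 by limma), and without control 1 its sign turned, to -0.029. Prdx2, on the opposite strand, overlaps 173 of its exon bases. It had 117 and 111 CPM in Chrna4 and 129.7 and 130.8 CPM in control libraries (adjusted p = 0.0537 by limma).

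Jund, known for steady expression and for restraining proliferation in fibroblasts (chromosome 8, 70698949 to 70700616, plus strand), had 72.2 and 65.7 CPM in Chrna4 libraries and 72.0 and 67.4 CPM in control libraries. The groups covered nearly the same range. Its log2 change was -0.017, with a 95% interval of -0.18 to 0.14 (adjusted p = 0.907 by limma). Its sign turned without Chrna4 2 and without control 1, with values of 0.050 and 0.030. The antisense gene Gm11175 overlaps 919 of the 1668 exon bases of Jund and was not among the listed genes.

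Atf3 encodes a stress-inducible member of the ATF/CREB family that represses as a homodimer and can activate with a JUN partner (chromosome 1, 191170296 to 191218039, minus strand). It had 192.9 and 178.1 CPM in Chrna4 libraries and 128.9 and 101.2 CPM in control libraries. Both Chrna4 libraries were higher than both controls, and control 1 was the higher control. The means were 185.5 ± 10.5 CPM in Chrna4 and 115.0 ± 19.6 CPM in control (SD, n = 2 each), a ratio of 1.61. On the log2 scale Atf3 changed by 0.69 (SE 0.09, adjusted p = 0.000355 by limma). The controls differed by 0.35 on the log2(CPM + 1) scale. Without control 3 the change was 0.52 and without control 1 it was 0.87, and both passed the test.

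Egr1, the archetype of the EGR family and a direct target of SRF and ETS-type factors, had the largest log2 change of the 9 tested genes. It had 51.5 and 58.4 CPM in Chrna4 libraries and 25.6 and 29.2 CPM in control libraries. The lowest Chrna4 value was well above the highest control. The means were 54.9 ± 4.91 CPM in Chrna4 and 27.4 ± 2.53 CPM in control (SD, n = 2 each), a ratio of 2.01, and the log2 change was 0.98 (SE 0.09, adjusted p = 1.95e-05 by limma).

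Egr2, known from hindbrain and Schwann cells (chromosome 10, 67535475 to 67542188, plus strand), was barely detected. It received 21 and 30 reads in Chrna4 libraries and 24 and 10 reads in control libraries, or 0.683 and 0.950 CPM against 0.739 and 0.309 CPM. The groups overlapped and the gene lay below the minimum for testing. When no minimum was applied, its adjusted p was 0.392 by limma.

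**Figure D2:**
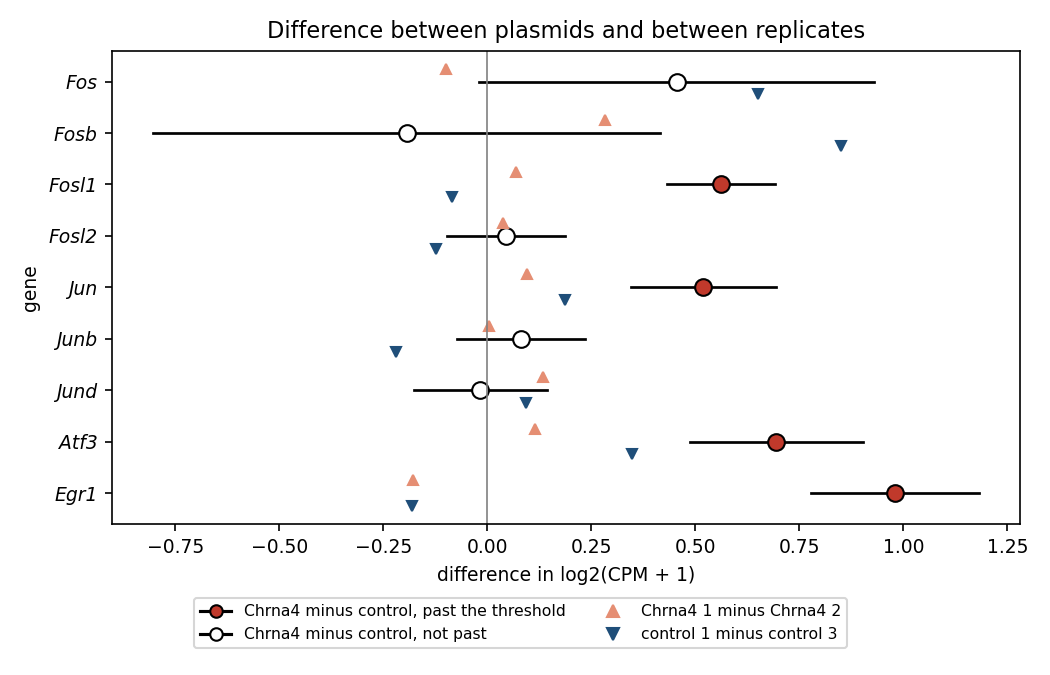
Difference in log2(CPM + 1) for the 9 tested genes: Chrna4 minus control with its 95% interval from limma (circles, red where past the threshold), Chrna4 1 minus Chrna4 2 (upward triangles) and control 1 minus control 3 (downward triangles). For Fosl1, Jun, Atf3 and Egr1 the difference between plasmids exceeds both replicate differences, whereas for Fos and Fosb the controls differ by 0.65 and 0.85.

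The replicate differences separate these genes further. Between the controls, Fos and Fosb differed by 0.65 and 0.85 on the log2(CPM + 1) scale, with control 1 higher. Control 1 was the lower one for Fosl1, Fosl2, Junb and Egr1, with differences (control 1 minus control 3) of -0.084, -0.12, -0.22 and -0.18. Chrna4 1 exceeded Chrna4 2 in 7 of the 9 tested genes, and control 1 exceeded control 3 in 5. In 5 of the 9, the 4 called genes and Fos, both Chrna4 libraries exceeded both controls, as in 28.7% of all tested genes. In the authors' deposited table the same 4 genes had an adjusted p under 0.05 as higher in Chrna4, beside 9.24% of its genes, and 0 as lower, beside 7.61%. On recovered reads edgeR, DESeq2 and limma-voom each called these 4 genes higher and 0 of the 9 tested genes lower, beside 9.25%, 8.58% and 9.41% of tested genes called higher. That table gives log2 fold changes of control over Chrna4, of -1.005 for Egr1, -0.69 for Atf3, -0.56 for Fosl1 and -0.53 for Jun.

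Compared per length, the levels ranged widely. Per kilobase of merged exons, Junb stood at 122.9 ± 0.283 CPM per kb in Chrna4 and 116 ± 12.6 in control (SD, n = 2 each), and Fosl1 at 118 ± 3.99 in Chrna4 and 79.8 ± 3.31 in control. Atf3 followed with 86.1 ± 4.85 and 53.4 ± 9.11 CPM per kb, Jund with 41.3 ± 2.76 and 41.8 ± 1.93, and Jun with 23.0 ± 1.10 and 16.0 ± 1.49. Egr1 had 12.3 ± 1.09 CPM per kb in Chrna4, above Fosl2 at 11.2 ± 0.202. In control Egr1 had 6.11 ± 0.564 and Fosl2 10.9 ± 0.668 CPM per kb, the reverse order. With the longest coding transcript as length, Fosl2 lay above Egr1 in the Chrna4 libraries too, at 16.6 against 12.3 CPM per kb. Fos had 1.55 ± 0.0962 and 1.05 ± 0.461 CPM per kb, and Egr2 and Fosb lay at the bottom, with overlapping ranges in both groups. The other neighbours in the Chrna4 order did not overlap in the Chrna4 libraries. Opposite-strand genes overlap 1163 of the 2033 exon bases of Fosl1 and 919 of the 1668 of Jund, and use of strand in counting is not known. The effect of such overlaps on the levels per kb, and on the shares and ratios below, was not tested.

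Fosl1 supplied most of the FOS subfamily transcripts. Its share of the summed CPM per kb was 90.2% and 90.0% in Chrna4 libraries and 86.4% and 87.1% in control libraries. Fosl2 held 8.49% and 8.65% in Chrna4 and 11.6% and 12.0% in control libraries, and Fos between 0.766% and 1.53% over the 4 libraries. The summed FOS subfamily level was 130.9 ± 4.15 CPM per kb in Chrna4 and 91.95 ± 3.35 in control (SD, n = 2 each). The JUN subfamily sum was 187.2 ± 4.14 CPM per kb in Chrna4 and 174.3 ± 9.20 in control, with Junb as its main component in every library (64.1% to 69.4%). Jun made up 12.5% and 12.1% of that sum in Chrna4 libraries and 10.2% and 8.27% in control libraries. Ratios within a library do not depend on the scaling of libraries. The ratio of Fosl1 to Fosl2 per kb was 10.6 and 10.4 in Chrna4 libraries and 7.44 and 7.23 in control libraries. That of Jun to Jund was 0.551 and 0.566 in Chrna4 and 0.395 and 0.370 in control libraries. The ratio of Fosl1 to Jun overlapped between the groups, at 5.07 and 5.17 in Chrna4 and 4.54 and 5.49 in control libraries. With 2 libraries against 2 an exact two-sided permutation test of a ratio cannot go below p = 0.333, so no test of these ratios is given.

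**Figure D3:**
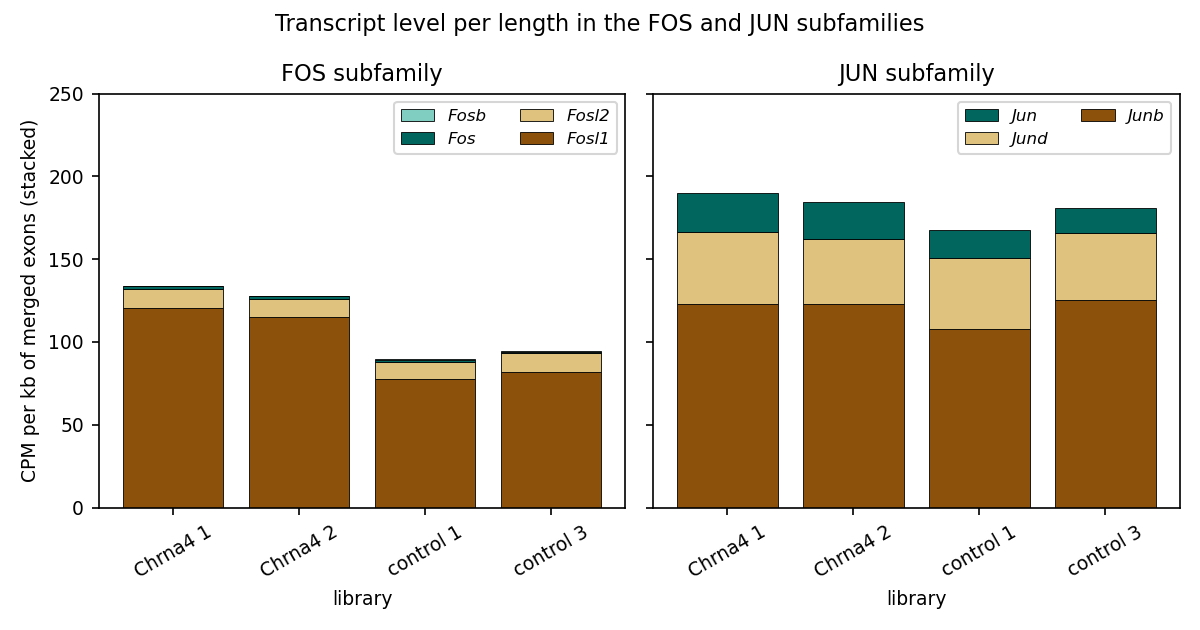
Transcript level per library as stacked CPM per kb of merged exons (linear axis from 0) for the FOS subfamily (left panel) and the JUN subfamily (right panel), with the Chrna4 libraries left of the controls. Fosl1 fills most of the FOS bars, which are taller in Chrna4, and Junb most of the JUN bars, in which the Jun segment is larger in Chrna4.

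Genes linked to these factors were described from 4 lists, by counts and medians beside those of all tested genes (15.9% called, median log2 change -0.0028). Other immediate early genes moved mostly upward. Of 36 tested, 19 rose and 1 fell, with a median log2 change of 0.28. Gadd45g, a stress-response gene of the GADD45 family, averaged 134 ± 4.62 CPM in Chrna4 and 75.8 ± 2.81 CPM in control (adjusted p = 4.24e-06 by limma). Csrnp1, a nuclear factor gene induced by AXIN1 in human cells, averaged 108 ± 5.44 and 53.1 ± 10.1 CPM (adjusted p = 3.59e-05 by limma). Gadd45b averaged 41.1 ± 3.13 and 23.3 ± 0.687 CPM, and the NF-kB inhibitor gene Nfkbia 85.8 ± 1.18 and 57.1 ± 2.47 CPM. The gene that fell was Id2, an inhibitor of helix-loop-helix factors, at 72.8 ± 0.670 CPM in Chrna4 and 107.8 ± 3.76 CPM in control (adjusted p = 7.99e-05 by limma). All means here and below are given with SD and n = 2 per group.

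Genes known as AP-1 targets were called in both directions, more often higher, with a median log2 change of 0.18. Of 36 tested, 14 were higher and 3 lower, beside 9.26% and 6.66% of all tested genes. The chemokine gene Ccl2 averaged 1067 ± 20.6 CPM in Chrna4 and 575.6 ± 21.0 CPM in control (adjusted p = 1.02e-06 by limma). Cxcl2, a neutrophil chemokine gene, averaged 13.2 ± 0.338 and 2.73 ± 0.377 CPM, and its relative Cxcl1 74.0 ± 6.56 and 40.1 ± 3.17 CPM. Both are also NF-kB targets. The cytokine gene Lif averaged 77.3 ± 0.344 and 44.2 ± 2.67 CPM, and the collagenase gene Mmp13 94.5 ± 5.05 and 50.5 ± 5.95 CPM. All 5 named targets rose. Among the 14 were Fst (2.11 and 0.493 CPM) and Csf2 (2.45 and 0.555 CPM), named after their values were seen, which reached the minimum of 1 CPM only through the Chrna4 libraries. At a minimum of 5 CPM 12 were higher, among them Cxcl2, which reached that minimum only through the Chrna4 libraries. The 3 that fell, named after their values were seen, were Itgb4, S100a6 and Sprr1a. Without Chrna4 2 the list had 9 higher and 1 lower, and without control 1 it had 5 lower.

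Partners and relatives of the factors were bZIP and EGR genes with their co-repressors. Of 28 genes 21 were listed and 19 tested. By limma 4 rose and 0 fell, beside 9.26% and 6.66% of all tested genes, with a median log2 change of 0.06. At an unadjusted p under 0.05 by limma, 6 were higher and 4 lower. Mafk, a small MAF protein gene, averaged 209 ± 5.60 CPM in Chrna4 and 138 ± 23.7 CPM in control (adjusted p = 0.000760 by limma). Batf2, a JUN partner induced by interferon, received 54 and 82 reads in Chrna4 libraries and 7 and 4 reads in control libraries. Batf2 is among the 4 that rose, but reached the minimum of 1 CPM only through the Chrna4 libraries. It fell out of testing without Chrna4 1, without Chrna4 2 and at a minimum of 5 CPM. Ddit3, encoding the stress factor CHOP, rose to 88.7 ± 0.762 CPM in Chrna4, against 70.6 ± 9.41 CPM in control. Nfe2l1 rose to 482 ± 1.86 CPM, against 425 ± 14.3 CPM in control. The calls of Ddit3 and Nfe2l1 were lost without Chrna4 1 (adjusted p = 0.0701 and 0.389 by limma) and without Chrna4 2 (0.0559 and 0.379), and 1 gene of the list was called in either case. Nfe2l1 was also not called with library totals as the scaling (adjusted p = 0.139 by limma) or without the minimum of 1 CPM (0.0542). Without control 3 the list had 6 higher and 2 lower, and with library totals 3 lower.

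Kinases and promoter-binding factors that act upstream showed a median log2 change of 0.00073, with 5 of 38 tested higher and 1 lower. Srf, which binds the promoters of Fos and Egr1, averaged 59.5 ± 1.44 CPM in Chrna4 and 43.9 ± 0.299 CPM in control (adjusted p = 0.00136 by limma). Ets1 averaged 263 ± 5.64 and 203 ± 7.61 CPM (adjusted p = 0.000830 by limma). The MAP kinase gene Mapk3, encoding ERK1, fell to 128 ± 2.02 CPM in Chrna4, against 160 ± 7.09 CPM in control (adjusted p = 0.00303 by limma). Rps6ka4, encoding the kinase MSK2, and Map2k1, encoding MEK1, rose by 0.27 and 0.23 on the log2 scale. Both calls were lost without Chrna4 1 (adjusted p = 0.0776 and 0.130 by limma) and without Chrna4 2 (0.155 and 0.306), Map2k1 was not called with library totals (0.0542), and Mapk3 was not called without Chrna4 1 (0.0506). Higher and lower calls in this list numbered 2 and 0 without Chrna4 1, 3 and 1 without Chrna4 2, 9 and 6 without control 1, 7 and 2 without control 3, and 3 and 2 with library totals. The share called, 15.8%, was close to the 15.9% of all tested genes.

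**Figure D4:**
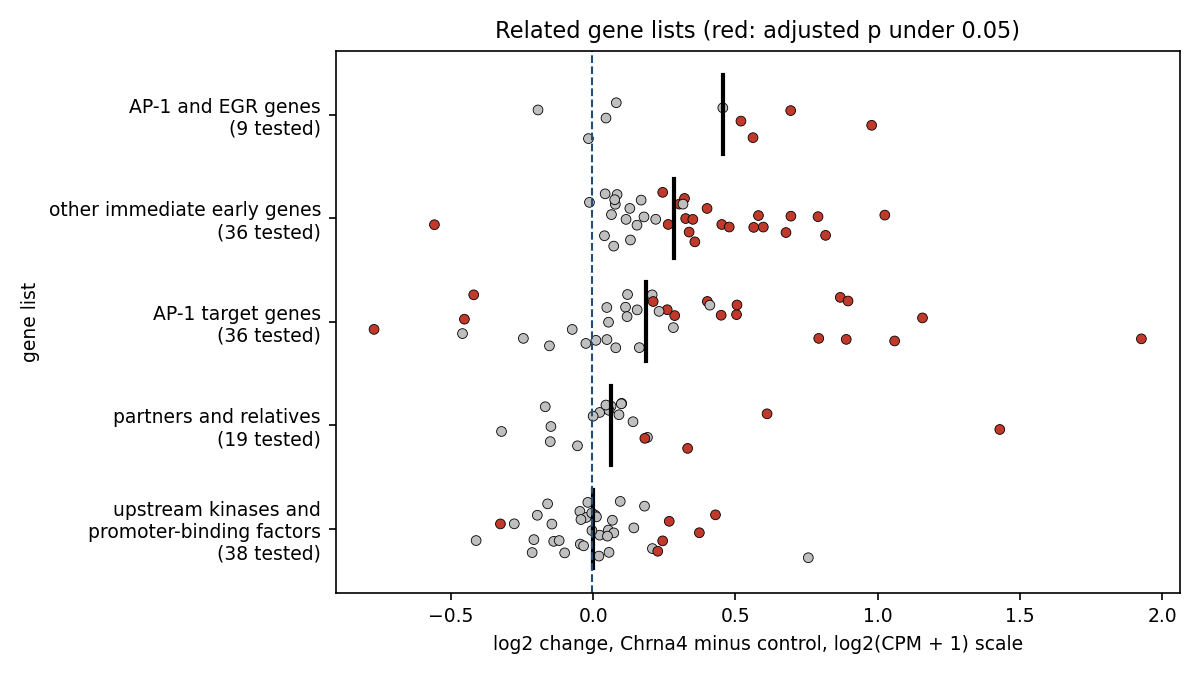
Log2 change, Chrna4 minus control on the log2(CPM + 1) scale, of every tested gene in the AP-1 and EGR set and the 4 related lists (red: adjusted p under 0.05 by limma), with a black bar at each list's median and a dashed line at the median of all tested genes. The medians are 0.46, 0.28, 0.18, 0.06 and 0.00073 from top to bottom, and vertical scatter within a list has no meaning.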

How the data were processed

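PolyA-selected RNA from 4 AML12 samples was sequenced on an Illumina instrument, per the labels' protocols. TopHat2, HTSeq and mm10/GRCm38 are named, without settings, in the submitters' processing notes. The authors deposited 1 table of 13422 genes. The deposited per-library signal was computed by the authors as CPM over a scaled library size, as judged from columns that sum to 978506 to 1020157. It also holds the authors' log2 fold change (control over Chrna4), log2 mean CPM, p-value and adjusted p-value, by a tool not given in the sources used here. In each column 100% of deposited values were whole multiples of 1 step (tolerance 0.01 reads), so reads could be recovered. TMM factors (trimmed mean of M-values) computed from those reads gave the deposited relative library sizes, with a relative difference of at most 1.33e-15. The main fit thus used TMM scaling.

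limma 3.58.1 in R 4.3.3 was run on log2(CPM + 1) over 11298 genes averaging 1 CPM or more. Each gene had 2 residual and 9.55 prior degrees of freedom. Because the deposited values are not counts, the count tests on recovered reads (edgeR 4.0.16, which called 1811 genes, DESeq2 1.42.0 and limma-voom) were alternatives. Others were RLE factors, library totals, no minimum, a minimum of 5 CPM, a pseudocount of 0.1 and each library left out. The fit was tested on simulated data. Exact 95% intervals for reads cover counting error only. Lengths and coordinates are from GENCODE M21 (GRCm38).

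The genes, lists, tests and alternatives were chosen with earlier results of these data known. Genes outside the 10 are named by rule, from each of the 4 related lists the called genes with the smallest adjusted p, 5 at most. Cell type markers, overlapping genes and genes said to be named after their values were seen stand outside that rule. Nothing in the labels shows that replicates came from separate cultures or transfections. The p-values therefore rest on a spread between libraries that may be technical.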

Additional observations from a re-analysis of the deposited data

How the results depend on the processing

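Egr1, Atf3, Fosl1 and Jun were called in all 12 alternatives run for each, with highest adjusted p-values of 5.03e-05, 0.000834, 0.000300 and 0.00449 by limma. Library totals as the scaling gave 1179 genes lower over the whole table, against 752. They gave 3 lower partners (median log2 change 0.0088), 3 higher and 2 lower upstream genes (median -0.051), medians of 0.23 for immediate early genes and 0.13 for AP-1 targets, and -0.0086 for Fosl2. With 1 library left out, whole-table calls ranged from 602 to 1718 higher and 325 to 1296 lower. Partners ranged from 1 to 6 higher and 0 to 2 lower, upstream genes from 2 to 9 and 0 to 6, and AP-1 targets from 9 to 18 and 1 to 5, with a median of 0.14 to 0.23. The immediate early median ranged from 0.22 to 0.27, Fosb from -0.62 to 0.23, Fosl2 from -0.017 to 0.11, Junb from -0.029 to 0.19 and Jund from -0.084 to 0.050. In such fits the spread is measured in 1 group only, and the lone library is assumed to vary like the others. With the longest coding transcript as length, the Chrna4 level per kb was 1.73 for Fos, 0.298 for Fosb, 129 for Fosl1, 16.6 for Fosl2, 156 for Junb and 93.5 for Atf3. No paired analysis was possible because the groups share only replicate number 1. Depth limits Fos, Fosb and Egr2, with 10 to 120 reads per library. For Fos and Fosb the difference between the controls is a further limit.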
